A study of Mus musculus with 12 samples.

Results

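The genes described here encode receptors for opioid and tachykinin peptides, the related orphan receptor Gpr139, and the peptide precursors Pnoc and Tac2. They were taken by symbol from the deposited table: 9 genes of 56748, of which all 9 passed the filter on low counts that left 17995 genes for testing. An earlier account of the same libraries had named Oprk1 for its lower level after valproic acid in wildtype, and the list was chosen by symbol with such results in view. Which values selected the other genes is not recorded, so every valproic acid comparison is treated as used in the choice. Fold changes and adjusted p-values of these genes are therefore a description of where they stand in a fit over all tested genes, and not independent evidence.

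RNA was measured in 12 libraries of mouse brain, which the series describes as adult forebrain, with 3 libraries in each of 4 groups. The groups were the knockout after valproic acid before birth (htr_V), the knockout without it (htr), wildtype after valproic acid before birth (WT_V) and wildtype without it (WT). The knockout is labelled htr3a Notch KO and described as a conditional deletion. The sources used here do not give which Notch gene was removed, what drives the deletion, the strain, the animals' age, the drug's dose and day, or whether each library is 1 animal, so the p-values measure only the spread between libraries. Valproic acid treats epilepsy and also inhibits histone deacetylases, and its use in pregnancy is a standard rodent model of autism-related behaviour.

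Opioid receptors are receptors coupled to inhibitory G proteins. When a peptide binds, they open potassium channels, close calcium channels and lower cyclic AMP, which quiets neurons and lowers transmitter release. Oprm1, Oprd1 and Oprk1 encode the mu, delta and kappa receptors. Enkephalins from Penk act mainly at the delta and mu receptors, beta-endorphin from Pomc at the mu receptor, and dynorphins from Pdyn at the kappa receptor. Oprl1 encodes the nociceptin receptor, whose ligand comes from Pnoc. Tachykinin receptors instead raise intracellular calcium and excite neurons: Tacr1 binds substance P from Tac1, and Tacr3 binds neurokinin B from Tac2. In the forebrain dynorphin, enkephalin and substance P are made in quantity by striatal projection neurons. Gpr139 encodes an orphan receptor that responds to aromatic amino acids and that in mice opposes mu receptor signalling.

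The upstream sequences of both tachykinin receptor genes and of the gene for neurokinin B are shown to set the receptor genes, which had lower values after valproic acid, beside the ligand gene of Tacr3, whose groups overlapped. Each is the stretch of 250 bases before the annotated start, 5′ to 3′ on the plus strand of RefSeq's GRCm38.p6: chr3:134828757-134829006 for Tacr3, chr6:82402225-82402474 for Tacr1 and chr10:127724228-127724477 for Tac2. Capitals mark a TATAAA match.
Tacr3: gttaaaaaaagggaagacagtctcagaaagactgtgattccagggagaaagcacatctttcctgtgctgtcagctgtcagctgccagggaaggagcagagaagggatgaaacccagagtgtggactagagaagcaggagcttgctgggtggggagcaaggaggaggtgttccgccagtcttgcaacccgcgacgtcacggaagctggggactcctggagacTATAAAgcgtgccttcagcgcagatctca
Tacr1: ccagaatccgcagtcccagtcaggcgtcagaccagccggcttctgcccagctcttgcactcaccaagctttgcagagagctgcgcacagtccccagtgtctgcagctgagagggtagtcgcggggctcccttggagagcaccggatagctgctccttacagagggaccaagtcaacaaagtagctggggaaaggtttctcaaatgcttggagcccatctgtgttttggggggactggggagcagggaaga
Tac2: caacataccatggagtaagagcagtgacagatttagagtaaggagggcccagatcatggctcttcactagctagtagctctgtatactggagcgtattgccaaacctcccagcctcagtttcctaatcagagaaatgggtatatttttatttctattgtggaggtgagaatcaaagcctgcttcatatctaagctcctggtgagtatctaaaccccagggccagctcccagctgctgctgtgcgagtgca
Windows reaching to 50 bases after the start were searched on both strands for TATAAA, for TGACGTCA, the full cyclic AMP response element, and for GGGCGG, the GC box, none of which overlap. Of 32851 such windows in RefSeq's table, 13.6% held TATAAA, 1.79% held TGACGTCA and 35.7% held GGGCGG. The Tacr3 window held TATAAA at position -29 and the others held none of these letters. A GC content of 57% in Tacr3, 57.7% in Tacr1 and 48.3% in Tac2 compares with a median of 52.7% over all windows. RefSeq's table had a window for 6 of the 9 genes.

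Library totals were 18935991 to 22494104 counts in htr_V, 16887885 to 21840608 in htr, 20279003 to 24155672 in WT_V and 18139178 to 24944681 in WT. Neuronal markers were abundant in all groups, with means over the libraries of 1540 CPM (counts scaled to the library's total) for Snap25 and 1018 CPM for Slc17a7, as in brain tissue. Replicate 3 of htr_V and replicate 3 of WT_V had 6 and 12 counts of Xist, a transcript of the silenced X chromosome in females, against 5919 to 10767 in the other libraries. They stand apart in this way. Both are exposed libraries and every unexposed library had Xist, so this trait is not balanced over exposure. Values without both are given below. Of Notch1 to Notch4 and Rbpj, the partner of Notch in the nucleus, none passed the edgeR test in the knockout against wildtype with or without valproic acid. Notch1 averaged 19.1 ± 2.28 CPM in htr_V and 17.2 ± 0.674 CPM in htr, against 16.9 ± 1.58 CPM in WT_V and 17.8 ± 1.87 CPM in WT (SD, n = 3 each). Counts over a whole gene in whole tissue cannot show a deletion of part of a gene or in few cells, so the labels could not be checked this way. Htr3a, the serotonin receptor gene in the knockout's label, was higher in it: 10.4 ± 0.461 CPM in htr_V and 10.1 ± 0.616 CPM in htr, against 6.01 ± 0.753 CPM in WT_V and 4.28 ± 0.773 CPM in WT (SD, n = 3 each; knockout over both treatments, log2 fold change 1.02 ± 0.10 SE, edgeR adjusted p = 1.63e-06). Htr3b separated the libraries by labelled genotype, at 4.58 ± 0.353 CPM in htr_V and 4.11 ± 0.608 CPM in htr. It had 0.017 ± 0.0294 CPM in WT_V and 0 counts in every WT library (SD, n = 3 each). What lies behind the higher values of Htr3a and Htr3b was not tested.

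Scaled by annotated exon length, the nociceptin receptor gene was the most abundant of the 9. Oprl1 averaged 7.28 CPM per kb over the 12 libraries, with a range of 5.74 to 8.36. Pnoc followed at 2.61 CPM per kb, Tac2 at 2.54, Oprd1 at 1.98 and Oprk1 at 0.861. The lowest levels per kb were those of Tacr1 at 0.617, Tacr3 at 0.497, Gpr139 at 0.489 and Oprm1 at 0.0429. Neighbours in this order had separate ranges over the libraries in 3 places: Oprl1 over Pnoc, Oprd1 over Oprk1, and Gpr139 over Oprm1. Oprk1 was above Tacr1 in 12 of 12 libraries although their ranges overlap. Pnoc was above Tac2 in 7, Tac2 above Oprd1 in 9, Tacr1 above Tacr3 in 9 and Tacr3 above Gpr139 in 6, so these neighbours do not differ beyond their spread. Of the precursor genes outside the list, Penk stood at 121 CPM per kb and Tac1 at 18.8, both above Oprl1 throughout. Pdyn, at 9.19 with a range of 6.11 to 12.9, overlapped Oprl1. Exon lengths are those of the GENCODE M21 annotation.

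**Figure D1:**
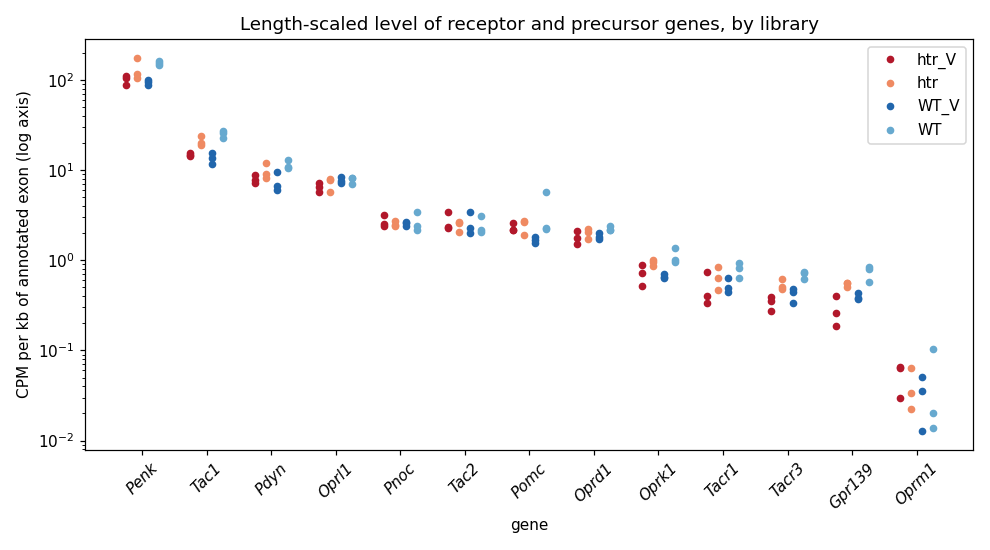
Level of each gene in CPM per kb of annotated exon (log axis) in every library, with points coloured by group and genes ordered by their mean. Oprl1 leads the receptor genes at a mean of 7.28 CPM per kb and Oprm1 is lowest at 0.0429, while Penk, at 121, tops all genes shown.

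After valproic acid in wildtype, Oprk1 fell, and Oprd1, Tacr1, Tacr3 and Gpr139 were also lower in every exposed library than in any unexposed one without passing the edgeR test. Of these, Gpr139 passed by DESeq2 (adjusted p = 0.0401). In the knockout, only Tacr3 and Gpr139 of the 9 separated in this way. Such separation in the lower direction was seen for 10.9% of all tested genes in wildtype and 10.3% in the knockout. Oprl1, Pnoc and Tac2 showed no separation in either genotype, and Oprm1 was too sparsely counted to judge. These are whole-tissue libraries, in which fewer cells of a type and less RNA per cell cannot be told apart.

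The kappa receptor gene Oprk1 (ENSMUSG00000025905, chromosome 1) had 6.71, 4.75 and 8.05 CPM in htr_V, against 9.33, 8.83 and 8.01 CPM in htr. It had 6.04, 6.47 and 5.76 CPM in WT_V, against 9.29, 12.6 and 8.69 CPM in WT. In wildtype all exposed libraries lie below all unexposed ones, whereas in the knockout the groups overlap by a narrow margin, at replicate 3 of each. The fit gave 1.66-fold less Oprk1 in WT_V than in WT (log2 fold change -0.73 ± 0.17 SE, edgeR adjusted p = 0.0328). In the knockout the difference was -0.42 ± 0.17 (edgeR adjusted p = 0.231). The call in wildtype holds by a small margin: leaving out 1 library at a time gave adjusted p-values of 0.0425 to 0.138 in the same edgeR test, and leaving out both libraries lacking Xist gave a log2 fold change of -0.70 with an adjusted p of 0.0941. With limma-voom the adjusted p was 0.0575, and with DESeq2 0.00696. Among the removals of 1 library the call was kept where WT replicate 1 was left out, and was lost without WT replicate 2 or 3 or any of the WT_V replicates.

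Pdyn, the source of the kappa receptor's own ligands, the dynorphins, had 20.6, 22.3 and 25.8 CPM in htr_V, against 35.0, 26.2 and 24.0 CPM in htr. It had 17.6, 27.7 and 19.4 CPM in WT_V, against 30.8, 37.1 and 31.6 CPM in WT. Its groups did not overlap in wildtype and overlapped in the knockout, as those of Oprk1 did, but neither difference passed by edgeR (WT_V against WT, -0.61 ± 0.18, adjusted p = 0.136; htr_V against htr, -0.31 ± 0.18, adjusted p = 0.465). By DESeq2 the wildtype difference passed (adjusted p = 0.0079).

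The delta receptor gene Oprd1 (ENSMUSG00000050511, chromosome 4) had 6.14, 7.14 and 8.49 CPM in htr_V, against 8.39, 6.98 and 8.85 CPM in htr. It had 8.19, 7.0 and 7.24 CPM in WT_V, against 8.65, 9.71 and 8.82 CPM in WT. The wildtype groups did not overlap and the knockout groups did. The differences were small beside those of Oprk1, at a log2 fold change of -0.27 ± 0.14 in wildtype (edgeR adjusted p = 0.386) and -0.14 ± 0.14 in the knockout (adjusted p = 0.686). Penk, the enkephalin precursor gene, had 143, 179 and 171 CPM in htr_V, against 291, 192 and 173 CPM in htr, and 144, 166 and 154 CPM in WT_V, against 238, 251 and 263 CPM in WT. All WT_V libraries were below all WT libraries, and the log2 fold change of -0.70 ± 0.17 did not pass by edgeR (adjusted p = 0.103) but passed by DESeq2 (0.0238) and limma-voom (0.0262). In the knockout the groups overlapped at -0.41 ± 0.17 (adjusted p = 0.314).

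The mu receptor gene Oprm1 (ENSMUSG00000000766, chromosome 10) was close to the limit of what this depth can measure. It had 0.511, 0.24 and 0.528 CPM in htr_V, 0.518, 0.27 and 0.179 CPM in htr, 0.405, 0.286 and 0.102 CPM in WT_V, and 0.161, 0.11 and 0.826 CPM in WT. These values rest on 2 to 19 counts a library and 90 in all. The log2 fold changes of -0.45 ± 0.66 in wildtype and 0.36 ± 0.66 in the knockout come with wide intervals, which at 2 standard errors reach -1.78 in wildtype and 1.67 in the knockout. In the annotation Oprm1 overlaps Ipcef1 on the opposite strand, which stood at 54.0 ± 3.63 CPM in htr_V, 61.4 ± 4.06 CPM in htr, 58.7 ± 9.34 CPM in WT_V and 60.4 ± 4.94 CPM in WT (SD, n = 3 each). Whether the counting used strand is not stated, so the Oprm1 counts are uncertain. Pomc, the beta-endorphin precursor gene, had 2.84, 2.88 and 3.39 CPM in htr_V, against 3.53, 2.52 and 3.59 CPM in htr, and 2.39, 2.05 and 2.19 CPM in WT_V, against 2.94, 2.98 and 7.61 CPM in WT. WT replicate 3 stands well above the others, and the log2 fold change of -1.03 ± 0.30 in wildtype did not pass by edgeR (adjusted p = 0.103) and passed by DESeq2 (0.0421).

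The nociceptin receptor gene and its precursor gene overlapped between exposed and unexposed libraries. Oprl1 (ENSMUSG00000027584, chromosome 2) had 21.5, 27.1 and 24.4 CPM in htr_V, against 30.2, 29.2 and 21.6 CPM in htr. It had 28.2, 31.4 and 27.0 CPM in WT_V, against 26.1, 30.5 and 30.7 CPM in WT. The groups overlap in both genotypes, with log2 fold changes of -0.15 ± 0.11 in the knockout and -0.01 ± 0.11 in wildtype. An interval of 2 standard errors in wildtype runs from -0.23 to 0.21. Pnoc (ENSMUSG00000045731, chromosome 14) had 5.40, 6.86 and 5.19 CPM in htr_V, against 5.28, 5.23 and 5.86 CPM in htr, and 5.68, 5.16 and 5.66 CPM in WT_V, against 4.63, 5.24 and 7.47 CPM in WT. Exposed and unexposed libraries overlap here too, at 0.10 ± 0.18 in the knockout and -0.07 ± 0.17 in wildtype.

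**Figure D2:**
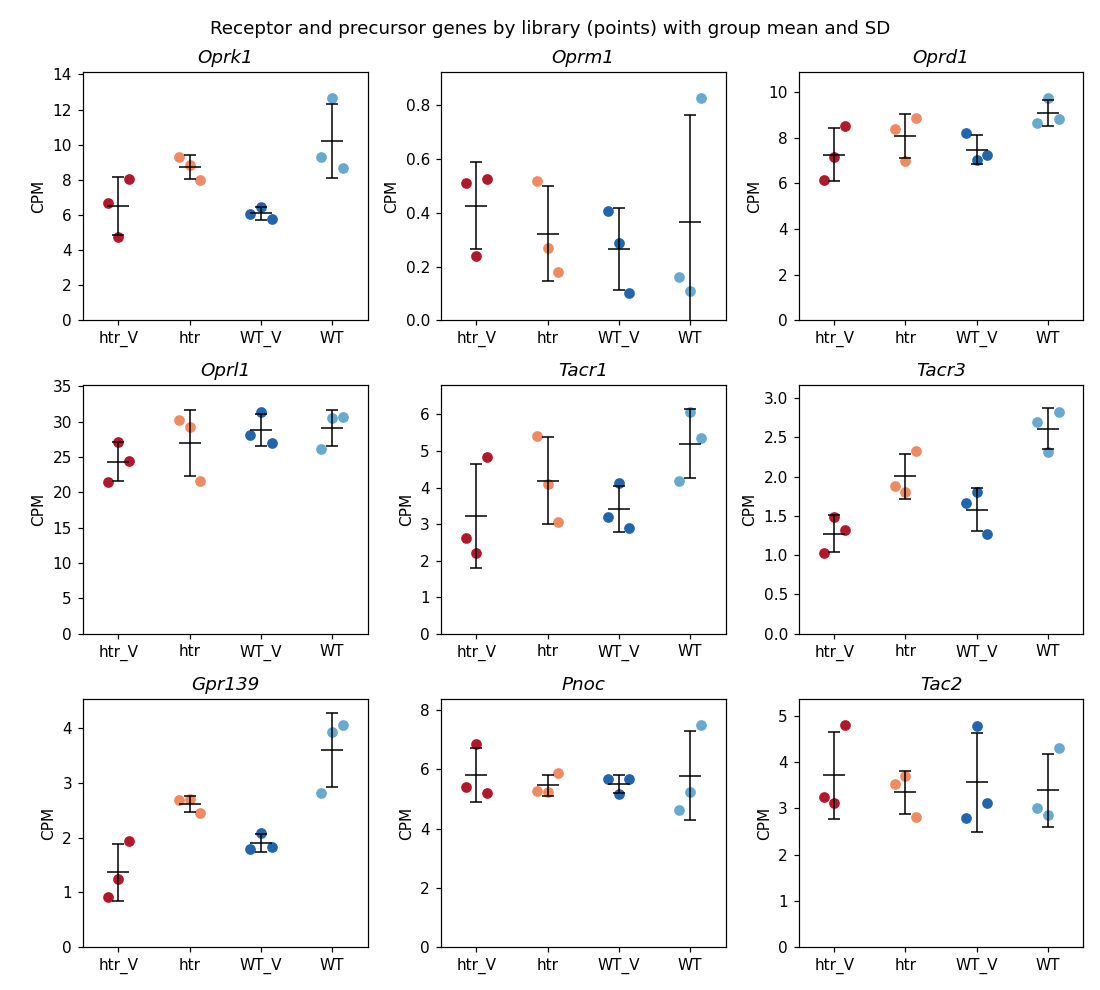
CPM of the 9 genes in each library (points), with the mean and SD of each group (horizontal and vertical lines, n = 3; SD bars are cut at 0), one gene a panel and each axis from 0. Oprk1, Tacr3 and Gpr139 sit lower in WT_V than in WT, whereas Oprl1, Pnoc and Tac2 overlap across groups.

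Both tachykinin receptor genes had lower values after valproic acid, and the neurokinin B gene did not. Tacr1 (ENSMUSG00000030043, chromosome 6), the substance P receptor, had 2.61, 2.21 and 4.84 CPM in htr_V, against 5.42, 4.10 and 3.05 CPM in htr. It had 3.20, 4.13 and 2.91 CPM in WT_V, against 4.18, 6.07 and 5.35 CPM in WT. Replicate 3 of htr_V, a library lacking Xist, lies above 2 of the htr libraries, while the wildtype groups do not overlap. The log2 fold change was -0.59 ± 0.26 in wildtype (edgeR adjusted p = 0.292) and -0.38 ± 0.27 in the knockout (adjusted p = 0.543). Without both libraries lacking Xist these were -0.49 in wildtype and -0.82 in the knockout (edgeR adjusted p = 0.422 for WT_V and 0.164 for htr_V).

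Tacr3 (ENSMUSG00000028172, chromosome 3), the neurokinin B receptor, was sparsely counted. It had 1.02, 1.49 and 1.32 CPM in htr_V, against 1.88, 1.80 and 2.33 CPM in htr. It had 1.66, 1.80 and 1.27 CPM in WT_V, against 2.70, 2.32 and 2.82 CPM in WT. The exposed libraries were below the unexposed ones in both genotypes, as were those of 3.15% of all tested genes. The counts behind these Tacr3 values were 18 to 67 a library. Neither genotype alone passed the test, with log2 fold changes of -0.72 ± 0.24 in wildtype (edgeR adjusted p = 0.135) and -0.63 ± 0.25 in the knockout (adjusted p = 0.236). Its ligand gene Tac2 (ENSMUSG00000025400, chromosome 10) had 3.24, 3.12 and 4.79 CPM in htr_V, against 3.53, 3.69 and 2.81 CPM in htr, and 2.80, 4.79 and 3.11 CPM in WT_V, against 3.02, 2.87 and 4.30 CPM in WT. These groups overlap throughout, at 0.15 ± 0.23 in the knockout and 0.07 ± 0.23 in wildtype.

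Tac1, the substance P precursor gene, fell with valproic acid in wildtype. It had 50.7, 48.8 and 52.6 CPM in htr_V, against 81.5, 68.7 and 64.6 CPM in htr. It had 46.3, 53.3 and 40.3 CPM in WT_V, against 77.8, 88.8 and 92.8 CPM in WT. The groups do not overlap in either genotype. The log2 fold change was -0.89 ± 0.10 in wildtype, 1.85-fold lower (edgeR adjusted p = 0.0001022), and -0.50 ± 0.10 in the knockout (adjusted p = 0.0593, and 0.00272 by DESeq2). The remaining tachykinin genes were below the filter. Tacr2 had 0 to 4 counts a library. Tac4, the precursor of hemokinin, had 3, 8 and 10 counts in htr_V, 0, 1 and 0 in htr, and 0 in each WT_V and WT library. Summed over libraries this is 21 counts in htr_V against 1 in htr, a ratio of 20.1 with a 95% counting interval of 3.23 to 830. Against WT_V it is at least 7.71-fold higher, with a floor of 3 counts over the group. With no count filter, neither of these Tac4 differences passed the edgeR test (adjusted p = 0.135 against htr and 0.0991 against WT_V).

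Gpr139 (ENSMUSG00000066197, chromosome 7) had the most negative fold change of the 9 genes after valproic acid, and it was almost equal in the genotypes. It had 0.909, 1.25 and 1.93 CPM in htr_V, against 2.69, 2.70 and 2.45 CPM in htr. It had 1.78, 2.09 and 1.84 CPM in WT_V, against 2.82, 3.92 and 4.04 CPM in WT. All 6 exposed libraries lie below all 6 unexposed ones, as do those of Tacr3 by a narrow margin and of 2.07% of all tested genes. The log2 fold change was -0.91 ± 0.26 in the knockout, 1.89-fold lower, and -0.91 ± 0.24 in wildtype, 1.88-fold lower. Neither passed by edgeR, with adjusted p-values of 0.118 in the knockout and 0.0647 in wildtype, and by DESeq2 these were 0.079 and 0.0401.

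Over the 9 genes, the count past the edgeR test in WT_V against WT was 1 lower, Oprk1, and 0 higher. DESeq2 called 2, Oprk1 and Gpr139, and limma-voom 0, and 4 had an unadjusted p below 0.05 by edgeR, as did 14.2% of all tested genes. Of all tested genes 0.895% passed in that comparison, and 0.689% passed in the lower direction. The median log2 fold change of the 9 was -0.45, beside 0.01 over all tested genes, and 8 of the 9 were negative, as were 48.5% of all genes. The libraries of 5 of the 9 did not overlap in the lower direction, which was so for 10.9% of all tested genes. In htr_V against htr, 0 of the 9 passed by edgeR and 0 by DESeq2, where 0.0556% of all genes passed by edgeR, and 3 had an unadjusted p below 0.05, as did 14.9% of all genes. The median there was -0.15, and 2 of the 9 did not overlap in the lower direction, against 10.3% of all genes. In both genotypes alike, 6 of the 9 were negative, against 29.7% of all genes, and 2 of the 9, Tacr3 and Gpr139, did not overlap in the lower direction, against 3.15%. Since the list was drawn up with results of these libraries in view, nothing is read from these counts.

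**Figure D3:**
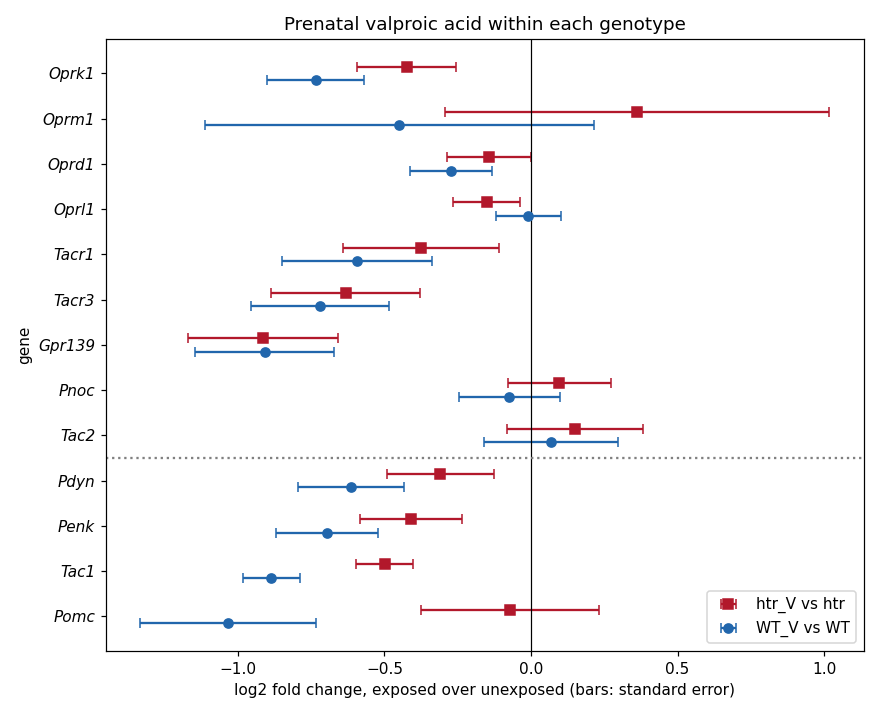
Fitted log2 fold change of exposed over unexposed libraries within each genotype (squares, htr_V against htr; circles, WT_V against WT), with standard errors; the genes below the dotted line are ligand precursor genes outside the list. Gpr139 lies at -0.91 in both genotypes, and Oprl1, Pnoc and Tac2 lie between -0.15 and 0.15.

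Because the 2 genotypes' exposed and unexposed groups use different libraries, the exposure was also averaged over them in the same fit, a comparison added after the data were seen. It contains the libraries of the preceding comparisons and is no separate evidence. Gpr139, Oprk1 and Tacr3 fell. Gpr139 averaged 1.36 ± 0.523 CPM in htr_V and 2.61 ± 0.141 CPM in htr, and 1.90 ± 0.162 CPM in WT_V and 3.59 ± 0.674 CPM in WT (SD, n = 3 each), for a log2 fold change over both genotypes of -0.91 ± 0.17 (edgeR adjusted p = 0.00491). For Oprk1 it was -0.58 ± 0.12 (adjusted p = 0.00682) and for Tacr3 -0.68 ± 0.17 (adjusted p = 0.0223) by the same test. Tacr1, at -0.48 ± 0.18, did not pass (edgeR adjusted p = 0.129), nor did Oprd1 at -0.21 ± 0.10 (adjusted p = 0.226). So 3 of the 9 passed in the lower direction, where 5.99% of all genes passed in either direction and 3.87% in the lower one.

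The calls on Oprk1 and Gpr139 held without both libraries lacking Xist, at -0.66 for Oprk1 (edgeR adjusted p = 0.0126) and -1.08 for Gpr139 (adjusted p = 0.00738). That on Tacr3 did not, at -0.63 (edgeR adjusted p = 0.106). Tacr3 also missed the threshold in the same test without WT replicate 3 (adjusted p = 0.0628), htr replicate 3 (0.0635), WT_V replicate 3 (0.0582) or htr_V replicate 1 (0.0607). Among the ligand genes, Tac1 fell by 0.69 on the log2 scale (edgeR adjusted p = 1.985e-05) and Penk fell by 0.55 (adjusted p = 0.033). Pdyn was at -0.46 ± 0.13 (edgeR adjusted p = 0.0593, and 0.00153 by DESeq2) and Pomc at -0.55 ± 0.21 (adjusted p = 0.136).

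**Figure D4:**
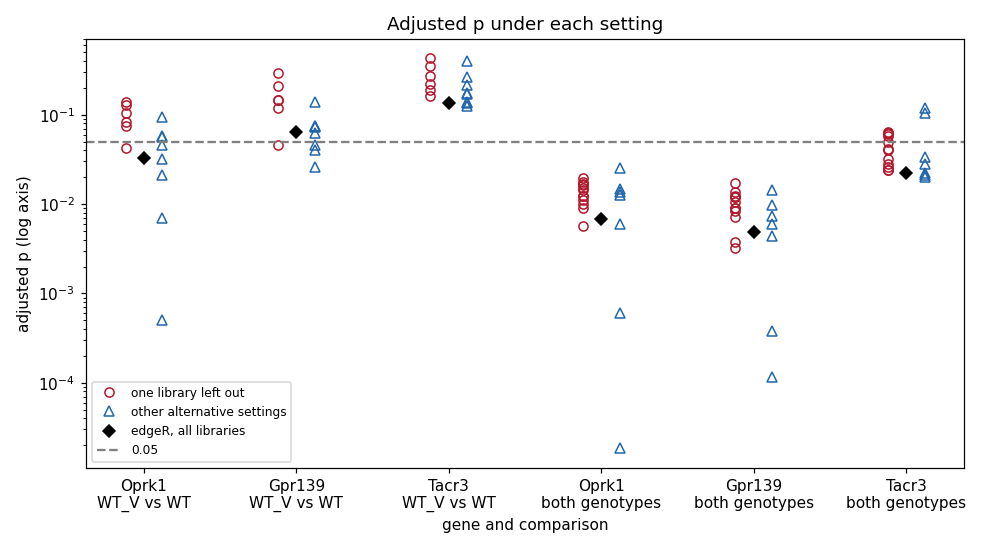
Adjusted p (log axis) of 3 receptor genes for valproic acid in wildtype and averaged over both genotypes, with all libraries in edgeR (diamonds), with 1 library left out (open circles) and under the other settings (open triangles); the dashed line is 0.05. Averaged over genotypes, Oprk1 and Gpr139 stay below the line at every setting shown, while Tacr3 crosses it, as does Oprk1 in wildtype.

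The exposure effect was next compared between the genotypes. The interaction, htr_V against htr minus WT_V against WT, was 0.31 ± 0.24 on the log2 scale for Oprk1, -0.01 ± 0.32 for Gpr139, 0.09 ± 0.35 for Tacr3, 0.22 ± 0.37 for Tacr1 and 0.81 ± 0.93 for Oprm1. For Oprd1 it was 0.13 ± 0.20, for Oprl1 -0.14 ± 0.16, for Pnoc 0.17 ± 0.25 and for Tac2 0.08 ± 0.33. The edgeR count past the test was 0 of 9 genes (0 also by DESeq2), with 0 at an unadjusted p below 0.05, beside 0 of all tested genes adjusted and 5.97% unadjusted. An interval of 2 standard errors for Gpr139 runs from -0.64 to 0.63, so a difference of 1.5-fold between the genotypes would still be inside it. That Oprk1 passed in wildtype and not in the knockout is therefore not shown to be a difference between them (edgeR adjusted p = 0.898). Of the ligand genes outside the list, Tac1 had an interaction of 0.39 ± 0.14 and Pomc of 0.96 ± 0.43 (edgeR adjusted p = 0.833 for each), and both had an unadjusted p below 0.05. Penk was at 0.29 ± 0.25 and Pdyn at 0.31 ± 0.26.

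For the knockout itself no receptor gene passed the test. In htr against WT, 0 of the 9 passed by edgeR and 0 by DESeq2, with 0 at an unadjusted p below 0.05, where 0.0389% of all tested genes passed by edgeR and 3.13% at the unadjusted p. All 9 log2 fold changes were below 0, as were 50.3% of all genes, with a median of -0.18 beside 0.00 over all genes. In htr_V against WT_V, again 0 passed by edgeR and 0 by DESeq2, with 1 at an unadjusted p below 0.05, where 0.05% of all genes passed by edgeR and 7.44% at the unadjusted p. There 5 of the 9 were below 0, as were 48.8% of all genes. Gpr139 was the one gene whose htr and WT libraries did not overlap, which 3.81% of all genes did in the lower direction. Its fold change was -0.45 ± 0.23 in htr against WT and -0.46 ± 0.26 in htr_V against WT_V, and -0.45 ± 0.18 averaged over both treatments (edgeR adjusted p = 0.9999). Oprl1, the next by unadjusted p in the average, was at -0.17 ± 0.08, and Tacr3 at -0.35 ± 0.17. The edgeR adjusted p was again 0.9999 for both, and 0.05% of all genes passed in the averaged comparison. The averaged knockout differences of the others were -0.06 ± 0.12 for Oprk1, 0.22 ± 0.47 for Oprm1, -0.10 ± 0.10 for Oprd1, -0.18 ± 0.18 for Tacr1, -0.0031 ± 0.12 for Pnoc and 0.02 ± 0.16 for Tac2. Those of Penk, Pdyn, Pomc and Tac1 lay between -0.08 and -0.02, which averages opposite signs. In htr against WT all 4 were below 0, with a median of -0.24. In htr_V against WT_V all 4 were above 0, with a median of 0.10. By edgeR 0 of the 4 passed in either comparison. The comparisons with WT share its libraries, as those with WT_V share theirs.

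Genes that make, cut and transduce these peptides mostly did not pass. Of 15 genes for peptide processing and inactivation, led by the carboxypeptidase gene Cpe at a mean of 3995 CPM, 0 passed within either genotype by edgeR or DESeq2, with 6 in the knockout and 2 in wildtype at an unadjusted p below 0.05 (14.9% and 14.2% of all tested genes), and with medians of -0.02 in htr_V against htr and 0.03 in WT_V against WT. Averaged over genotypes 2 fell. Scg5, the chaperone of the convertase Pcsk2, averaged 186 and 217 CPM in htr_V and htr, and 185 and 220 CPM in WT_V and WT (-0.24 ± 0.05, edgeR adjusted p = 0.0125). Mme, which encodes the enkephalin- and substance P-cleaving enzyme neprilysin, averaged 8.67 and 11.4 CPM in htr_V and htr, and 8.86 and 12.6 CPM in WT_V and WT (-0.46 ± 0.11, edgeR adjusted p = 0.0136).

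Receptor coupling and regulation were covered by 29 genes (G proteins, their regulators, kinases, arrestins and channels). By edgeR 1 of them rose in WT_V against WT and 0 passed in htr_V against htr, and DESeq2 called 1 in each. An unadjusted p below 0.05 by edgeR was found for 9 in wildtype and 6 in the knockout, beside 14.2% and 14.9% of all tested genes. The gene that rose was Kcnj9, a subunit of the potassium channels that opioid receptors open, at 116 CPM in WT_V and 89.0 CPM in WT (0.38 ± 0.08, edgeR adjusted p = 0.0188). Averaged over genotypes Kcnj9 (0.26 ± 0.05, edgeR adjusted p = 0.00912) and the calcium channel gene Cacna1a (0.21 ± 0.05, adjusted p = 0.0193) rose. Rgs7bp, which anchors a regulator of G proteins at the membrane, fell (-0.19 ± 0.05, edgeR adjusted p = 0.0272). The other 26 did not pass by edgeR in that average, where DESeq2 called 5 of the 29 and limma-voom 4, and the list's median was 0.04 beside 0.01 over all tested genes.

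Receptors for other neuropeptides were described in the same way. Of 42 such genes 33 were tested, and 0 passed in either genotype by edgeR, with medians of -0.03 in htr_V against htr and 0.12 in WT_V against WT. An unadjusted p below 0.05 was found for 4 in the knockout and 5 in wildtype, beside 14.9% and 14.2% of all tested genes. DESeq2 called 0 in the knockout and 1 in wildtype. Averaged over genotypes, Cckbr, the brain's main cholecystokinin receptor gene, rose (0.24 ± 0.06, edgeR adjusted p = 0.0266), as did Vipr1, a receptor gene for vasoactive intestinal peptide (0.27 ± 0.08, adjusted p = 0.0438). Nmbr, the neuromedin B receptor gene, fell (-0.75 ± 0.21, edgeR adjusted p = 0.0328). The median of the 33 was 0.07, while the 7 receptor genes on the list had a median of -0.48 and all 7 were below 0. That difference was not tested, since the list was chosen with results in view.

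Markers of striatal projection neurons moved in the same direction as Oprk1, Tacr3, Gpr139 and the striatal precursor genes. Of 20 such markers, 9 fell in WT_V against WT, among them Drd1 (-0.82 ± 0.12, edgeR adjusted p = 0.00246), Rxrg (-0.63 ± 0.09, adjusted p = 0.00139), Syndig1l (-0.58 ± 0.09, adjusted p = 0.00246) and Six3 (-0.82 ± 0.16, adjusted p = 0.017). Of all tested genes 0.689% passed in the lower direction there. In htr_V against htr 0 passed by edgeR and DESeq2 called 4, and 9 had an unadjusted p below 0.05, as did 14.9% of all tested genes. All 20 were below 0 in both genotypes, as were 29.7% of all tested genes. Averaged over genotypes 13 of the 20 fell by edgeR, beside 3.87% of all tested genes, and DESeq2 and limma-voom called 17 each. Their median was -0.25 in the knockout and -0.63 in wildtype. The summed level of the list was 1528 to 1894 CPM in htr_V, against 1785 to 2616 CPM in htr, and 1527 to 1647 CPM in WT_V, against 2282 to 2358 CPM in WT, led by Ppp1r1b and Pde1b. No defining marker of the list was at 0. Their part in the values of the receptor genes was not tested.

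Some markers of other regions also fell or rose in wildtype. Those named here as called in wildtype also passed by edgeR averaged over genotypes, in the same direction. Of 14 markers of deep cortical layers 2 fell in wildtype, Syt6 (-0.86 ± 0.11, edgeR adjusted p = 0.000159) and Foxp2 (-0.55 ± 0.12, adjusted p = 0.0208). The 14 had a median of -0.06 in wildtype, with 9 below 0 and 5 above. In the knockout it was -0.05, with 10 below 0 and 4 above, and edgeR called 0 and DESeq2 3. Averaged over genotypes Syt6 (-0.64 ± 0.08, edgeR adjusted p = 4.3e-05), Foxp2 (-0.53 ± 0.08, adjusted p = 0.0012) and Tle4 (-0.24 ± 0.05, adjusted p = 0.0084) fell. The list summed to 472 to 503 CPM in htr_V, against 516 to 551 CPM in htr. In WT_V it summed to 481 to 508 CPM, against 511 to 553 CPM in WT. Of 6 claustrum markers Synpr fell (-0.62 ± 0.08, edgeR adjusted p = 0.000539), and their sum was 281 to 312 CPM in htr_V, against 329 to 347 CPM in htr, and 271 to 295 CPM in WT_V, against 341 to 377 CPM in WT. Synpr led that sum, at a mean of 152 CPM over the libraries. Averaged over genotypes Synpr was at -0.51 ± 0.06 (edgeR adjusted p = 3.27e-05). In the knockout edgeR called 0 of the 6 and DESeq2 called 1. The median log2 fold change of the 6 was -0.11 in each genotype, with 5 below 0 in wildtype and 4 in the knockout. Among 7 tested habenula markers, a site where Gpr139 is known to be high, Nwd2 rose (0.49 ± 0.10, edgeR adjusted p = 0.0188). Of the 7 in wildtype, 4 were below 0 and 3 above, with a median of -0.07. Nwd2 was also the most abundant of that list, at a mean of 18.3 CPM. That list summed to 31.8 to 37.4 CPM in htr_V, against 30.8 to 34.2 CPM in htr, and 34.8 to 43.2 CPM in WT_V, against 30.0 to 43.3 CPM in WT. All 9 tested markers of the olfactory bulb were below 0 in both genotypes, with a median log2 fold change of -0.88 in the knockout and -1.51 in wildtype, beside 0.01 over all tested genes in each. The list summed to 183 to 225 CPM in htr_V, against 239 to 309 CPM in htr, and 161 to 180 CPM in WT_V, against 224 to 450 CPM in WT, with no overlap in either genotype and with WT replicate 3 highest. Its most abundant genes were Pcp4l1, at a mean of 179 CPM over the libraries, and Calb2, at 20.4 CPM, so Pcp4l1 makes up most of the sum. Pcp4l1, which other forebrain regions also express, fell in wildtype (-0.59 ± 0.10, edgeR adjusted p = 0.00779). In the knockout 0 of the list passed by edgeR or DESeq2, with 1 at an unadjusted p below 0.05, beside 14.9% of all tested genes.

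Interneuron, thalamic and hypothalamic markers gave 0 calls by edgeR or DESeq2 in WT_V against WT and in htr_V against htr. At an unadjusted p below 0.05 there were 7 in wildtype and 4 in the knockout, beside 14.2% and 14.9% of all tested genes. Tested were 15 interneuron and 8 thalamic markers. Of the 15 hypothalamic markers 6 were tested. All 6 were below 0 in wildtype, with a median of -1.03, and 5 of them in the knockout, with a median of -0.25. Averaged over genotypes, Gad1 (-0.41 ± 0.10, edgeR adjusted p = 0.0424) and Gad2 (-0.44 ± 0.11, adjusted p = 0.049), which make the transmitter GABA, fell, as did the hypothalamic Nkx2-1 (-1.03 ± 0.26, adjusted p = 0.0209). Gad1 and Gad2 are also on the list of general neuronal markers and are not particular to interneurons. The 15 interneuron markers had a median of -0.07 in that average, with 11 below 0 and 4 above. The hypothalamus, where Tac2, Tacr3 and Oprk1 are known to be expressed, contributed unevenly: its list summed to 16.9 to 33.2 CPM in htr_V, 20.7 to 39.5 CPM in htr, 11.5 to 64.9 CPM in WT_V and 20.0 to 127 CPM in WT, with Kiss1 at 0 counts in all libraries. The highest value was that of WT replicate 3, the library in which Pomc also stood apart. Choroid plexus markers, led by Ttr, summed to 2651 to 3194 CPM in htr_V, 1854 to 2006 CPM in htr, 1367 to 2691 CPM in WT_V and 1345 to 2084 CPM in WT. All 12 were above 0 in htr_V against htr, with a median of 0.62. An unadjusted p below 0.05 was found for 11, beside 14.9% of all tested genes. After adjustment edgeR called 0 and DESeq2 called 4. In wildtype 5 of the 12 were above 0, with a median of -0.08. In htr_V against WT_V all 12 were above 0, with a median of 0.67. Cldn2 of that list rose there (0.94 ± 0.17, edgeR adjusted p = 0.0431), and DESeq2 called 4 of the 12. Whether any of these lists bears on the receptor genes was not tested.

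**Figure D5:**
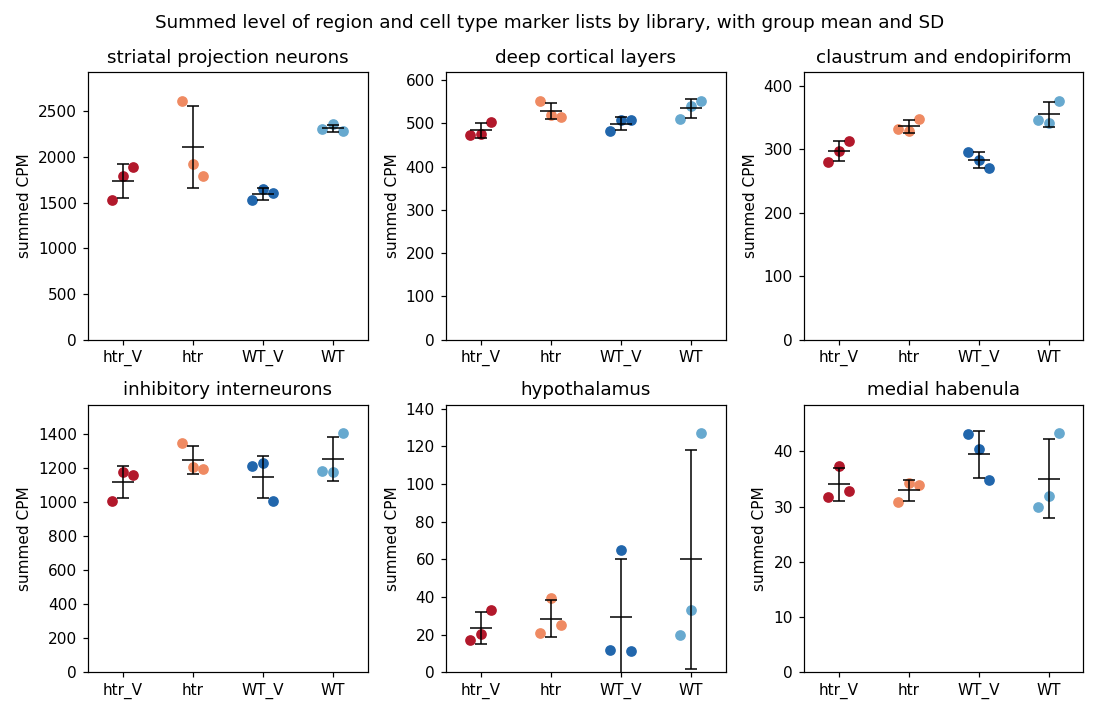
Summed CPM of 6 marker lists in each library (points), with the mean and SD of each group (lines, n = 3; SD bars are cut at 0). The striatal list is at 1527 to 1647 CPM in WT_V and 2282 to 2358 CPM in WT with no overlap, and the hypothalamic list reaches 127 CPM in 1 WT library.

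Genes with patterns most like each receptor gene were ranked by Pearson's r of log2 CPM over the 12 libraries among 13690 genes (13691 for Oprm1). The libraries share 4 groups, so a common group difference raises r, and values after removing group means are given beside it with no test. Tacr3 was most like Frmpd4 (r = 0.965, 0.918 within groups), March5 (0.965, 0.848) and Zfp385b (0.964, 0.848). Gpr139 was most like Chek2 (r = 0.941, 0.752 within groups), Tcp1 (0.934, 0.802) and Rab3ip (0.923, 0.809). Oprk1 was most like Actl6a (r = 0.868, 0.76 within groups), Tmem29 (0.863, 0.608) and B3galt2 (0.861, 0.643). Tacr1 had Sez6 (r = 0.924, 0.87 within groups), Slc17a8 (0.898, 0.861) and Chst15 (0.895, 0.835) as its nearest. For Oprl1 the nearest was Alg2 (r = 0.919, 0.903 within groups), for Oprd1 Noa1 (0.901, 0.853), for Tac2 Igsf1 (0.893, 0.921), for Pnoc Kif6 (0.87, 0.929) and for Oprm1 Cmklr1 (0.855, 0.876).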

How the data were processed

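RNA from 12 mouse brain samples was depleted of ribosomal RNA and made into libraries with an NEBNext Ultra kit, per the labels' protocols. HISAT2 and the mouse build GRCm39 are named in the submitters' processing notes. For the counting program, the annotation and the strand setting nothing is stated in the sources used here. The authors deposited raw counts per Ensembl gene, whole numbers with no normalisation, for 56748 genes. No 2 libraries held identical counts. Symbols were matched to 52073 identifiers, and exon lengths and overlaps come from GENCODE M21 on the earlier build GRCm38, so genes are given by chromosome only.

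Counts were filtered with edgeR's filterByExpr by group, which left 17995 genes, and scaled by TMM (factors 0.93 to 1.02). One quasi-likelihood model in edgeR, robust and with a mean for each group, took in the 12 libraries (common biological coefficient of variation 0.09). Tests were two-sided, and p-values were adjusted over the 17995 genes by Benjamini-Hochberg with a threshold of 0.05. Fold changes are from the fit, with their standard errors, and ± after a log2 fold change is 1 standard error. CPM values use TMM-scaled totals, and log2 CPM for likeness used a prior count of 2. The procedure was tested on simulated data with known changes.

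The genes and the 16 gene lists were chosen with earlier results of these data known. The rule for naming took the 9 genes and the opioid and tachykinin genes outside the list, and from the other lists up to 4 genes past the test by smallest p. The 3 genes most like each receptor gene were taken among named genes averaging 1 CPM or more. Intervals on counts cover counting error only.

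The meaning of the replicate numbers is not stated. With group means removed, same-numbered htr and WT libraries correlated at 0.122, 0.144 and 0.173. Over all groups same-numbered libraries ranged from -0.122 to 0.173 and differently numbered ones from -0.223 to 0.191. The htr and WT groups may be paired by number, which these values do not settle. Alternatives were DESeq2 size factors, no count filter, DESeq2's Wald test, limma-voom, the replicate number as a block, only the groups compared, each library left out, both libraries lacking Xist left out, and a sex term. The sex term marked the 2 libraries with fewer than 100 counts of Xist. The comparisons averaged over genotypes or treatments were added after the data were seen. Fits were run in R 4.3.3 (DESeq2 1.42.0, edgeR 4.0.16, limma 3.58.1), and tables and plots were made in Python 3.11.15 (matplotlib 3.10.9, scipy 1.17.1, pandas 2.3.3, numpy 2.4.6).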

Additional observations from a re-analysis of the deposited data

How the results depend on the processing

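Of 1017 recomputed log2 fold changes of the 9 genes, over 63 gene and comparison pairs, 92 changed sign and none of these was past the test; the recomputed values reached a size of 1.21, for Oprm1 in htr against WT; 6 calls were gained and 14 lost. In WT_V against WT, the 161 genes called became 512 with no count filter, 333 with DESeq2's Wald test, 40 without both libraries lacking Xist and 69 with a sex term. The 1 of the 9 genes called, Oprk1, became 2 with no filter, with DESeq2 and with only the groups compared, and 0 with limma-voom, with the replicate block (adjusted p = 0.0564) and without both libraries lacking Xist. In htr_V against htr the 10 genes became 391 with no filter, 193 with DESeq2, 3 with limma-voom, 6 with the replicate block, 38 with only the groups compared and 2 with a sex term. In htr against WT the 7 became 15 with no filter and 11 with only the groups compared; in htr_V against WT_V the 9 became 60, 25 with DESeq2 and 29 without the libraries lacking Xist; in the interaction the 0 became 5 and 4. Averaged over genotypes, 1078 became 298 without the libraries lacking Xist and 172 with a sex term, and for the averaged knockout 9 became 46 with no filter, 18 with DESeq2 and 14 without the libraries lacking Xist.

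Leaving out 1 library gave 14 to 155 genes and 0 to 2 of the 9 in WT_V against WT, 2 to 10 genes in htr_V against htr, 6 to 8 in htr against WT, 7 to 86 in htr_V against WT_V, 0 to 1 in the interaction, 426 to 1193 genes and 2 to 4 of the 9 averaged over genotypes, and 7 to 19 for the averaged knockout, with 0 of the 9 elsewhere. The causes were not tested. The replicate block changed no other count of the 9 genes, and what the numbers mark is not given. Counts of 2 to 19 a library limit Oprm1, and 16 to 93 and 18 to 67 limit Gpr139 and Tacr3.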
